A study of Caenorhabditis elegans with 2 samples.

Results

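The aspartyl protease genes (asp) and cathepsin B-like cysteine protease genes (cpr) of Caenorhabditis elegans, together with the cathepsin L gene cpl-1, were examined for peaks of the tagged protein ALY-2. The genes were chosen by name among protein-coding genes of the nuclear chromosomes, which gave 26 members of 19973 genes: 17 asp genes, 8 cpr genes and cpl-1. The group was taken up because asp-1 was already known to carry one of the strongest peaks of these data, so its level and rank are given as a description, with no test. A gene was said to have a peak if the peak overlapped the gene body, the 1000 bp upstream of it or the 500 bp downstream of it by at least 1 bp.

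Chromatin was immunoprecipitated from whole L4 larvae of mixed sex, pooled males and females, of strain OP217. The strain has the genotype unc-119(ed3) III; ddIs172 and is 1 transgenic line that stably expresses ALY-2 fused to GFP-FLAG at its C-terminus. Both samples, biological replicates 1 and 2, share this genotype, and there was no other group. Whether they came from separate cultures is not given in the sources used here, and part of the difference between them may be technical. Whole animals were used, so the tissue in which a peak arose cannot be told apart.

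Aspartyl proteases of this family are synthesized as precursors and cut proteins in acidic compartments, with a pair of catalytic aspartates, each normally in an aspartate-threonine-glycine motif. Cathepsins B and L are papain-like proteases that use a catalytic cysteine and histidine, with an asparagine that orients the histidine. In C. elegans many of these enzymes act in the gut lumen or in lysosomes of the intestine, where they digest food and recycle cell proteins. Aly/REF proteins, the family of ALY-2, are adaptors that join newly made mRNA and help its export from the nucleus.

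The authors deposited 4 peak lists in the ce11 build. The reproducible list holds the peaks past their optimal threshold for the irreproducible discovery rate and has 193 peaks. The combined list, made from the pooled replicates, has 3341 peaks, and the permissive lists of replicates 1 and 2 have 17453 and 29384 peaks. Signal is the authors' own value per peak, on a scale that is not stated, and it is compared within a list only. Its median was 37.52 in the reproducible list, 19.48 in the combined list, 8.885 in replicate 1 and 4.953 in replicate 2. Peaks were usually 370 to 384 bp wide. The depth of sequencing behind each list is unknown.

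Of the members, asp-1 and cpr-9 had a reproducible peak, and both peaks lay over coding sequence far from the gene start. The coding bases under them are shown because they are the sites on which the results turn. They were read from the RefSeq WBcel235 genome, which is the ce11 assembly, 5′ to 3′ on the strand of the gene. At asp-1, which encodes an intestinal aspartyl protease, the 211 coding bases at chrV:19049562-19049772 on the minus strand lay under the peak, and the capitals mark the stop codon.
asp-1 end: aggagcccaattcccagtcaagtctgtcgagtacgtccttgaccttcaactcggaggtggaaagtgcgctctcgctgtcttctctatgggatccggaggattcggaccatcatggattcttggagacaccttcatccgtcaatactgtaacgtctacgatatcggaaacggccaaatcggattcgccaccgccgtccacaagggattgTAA
At cpr-9, which encodes a cathepsin B-like protease, 300 of the 370 coding bases under the peak are at chrV:12004078-12004377 on the plus strand. The capitals mark the codon of the histidine in a glycine-histidine-alanine motif and the codon of the asparagine in an asparagine-serine-tryptophan motif, the places of the catalytic histidine and asparagine in cathepsin B.
cpr-9 catalytic stretch: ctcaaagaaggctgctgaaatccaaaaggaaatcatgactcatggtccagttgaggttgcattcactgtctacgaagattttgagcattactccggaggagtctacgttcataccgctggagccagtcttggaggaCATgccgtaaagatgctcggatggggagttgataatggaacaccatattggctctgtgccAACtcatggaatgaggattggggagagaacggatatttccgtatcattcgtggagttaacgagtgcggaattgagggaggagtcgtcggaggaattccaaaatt
GC content of these stretches was 52.1% at asp-1 and 47.3% at cpr-9. The asp-1 value leaves out the bases of the peak past the stop codon. Within 100 bp on each side of the summit of the reproducible peak, it was 44.3% at asp-1 and 47.3% at cpr-9.

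The gene asp-1 (WBGene00000214, chrV:19049562-19050752, minus strand) is 1191 bp long, has 1 exon and is annotated with no untranslated region, so its annotated end is the stop codon. The reproducible peak spans chrV:19049403-19049772, and the same peak stands in the combined list with signal 66.46. Its summit lay 1164 bp from the start of the gene, at 97.7% of its length, with 23 coding bases between the summit and the stop codon. The peak covered codons 327 to 397 of 397, stop codon included. Both aspartate-threonine-glycine motifs, at residues 86 to 88 and 278 to 280 of the 396 residues, are encoded outside the peak. The window of no other protein-coding gene held the peak.

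The replicates placed the asp-1 site at the same end of the gene and at different levels. In replicate 2 the strongest asp-1 peak had signal 62.0, rank 2 of its list, with its summit 6 bp before the gene end. In replicate 1 it had signal 11.85, above 86.11% of its list, with its summit 123 bp past the gene end. These peaks overlapped by 253 bp, and their summits were 129 bp apart. Replicate 1 had a second peak of 11.71 over codons 169 to 297, and replicate 2 had further peaks of 14.53, 18.09 and 5.471. Of the last 3, the peak of 18.09 had its summit 190 bp upstream of the gene start, where replicate 1 had no peak, and that of 5.471 lay 425 bp upstream.

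The same imbalance was seen when asp-1 was set among all reproducible peaks. Of the 184 reproducible peaks that overlapped a replicate 1 peak, 26 stood lower than asp-1 in replicate 1. In replicate 2, where asp-1 had rank 2, the only one of the 193 that stood higher was the peak at chrV:14688373-14688742. Ranked by its strongest peak among genes that had one, asp-1 was gene 4 of 13791 in replicate 2 and gene 2455 of 11098 in replicate 1. Over genes in the combined list it was gene 15 of 3215. Where the peaks were ranked by −log10 q in place of signal, asp-1 stood above 97.85% of replicate 2. Its value there, 3.10, is the highest in that list and was shared by 633 peaks. In replicate 1 the strongest asp-1 peak stood above 86.11% by −log10 q, with a value of 0.0936, where the highest is 1.94. The second asp-1 peak of replicate 1 had 0.0892. These values are low and the permissive lists keep background. Of the replicates, asp-1 thus stood out from background by q in replicate 2 only.

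The gene cpr-9 (WBGene00010204, chrV:12003053-12004584, plus strand) is 1532 bp long with 3 exons. Its reproducible peak, chrV:12004009-12004378, had signal 33.77, close to the lowest of that list, 32.64. The summit lay 1141 bp from the start, at 74.5% of the gene length, and the peak covered codons 228 to 351 of 352, stop codon included. The catalytic histidine and asparagine, residues 297 and 317 by the motifs, are encoded under it. The window of the neighbouring gene F57F5.3 also held this peak.

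Peaks at cpr-9 were many and were found within the gene and upstream of it. The only summit downstream was that of a replicate 2 peak of 7.083, 21 bp past the gene end. The combined list had 4 peaks, with signals of 33.77 and 17.21 in coding sequence, 26.59 in the 3′ untranslated region and 31.69 upstream. Those of 33.77 and 26.59 overlap each other, so they are not separate sites. The upstream peak had its summit 905 bp before the gene start, inside the noncoding RNA gene F57F5.7 and in the window of gcy-33, a guanylyl cyclase gene. With rank 210 it was the nearest member peak outside the reproducible list, in which the lowest signal was 32.64, against 32.62 for the next peak of the combined list. In replicate 2 the coding peaks reached 26.97 and 24.66, and the upstream one 21.87. In replicate 1 the upstream peak was the stronger, at 15.26, with 11.23 over the coding site. Both sites were therefore listed in both replicates, and each replicate placed a different one first. In replicate 1, however, −log10 q was 0.254 upstream and 0.0769 over the coding site, against 3.1 at both sites in replicate 2. The replicate 1 calls and their order thus rest on low values from a permissive list that keeps background.

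**Figure D1:**
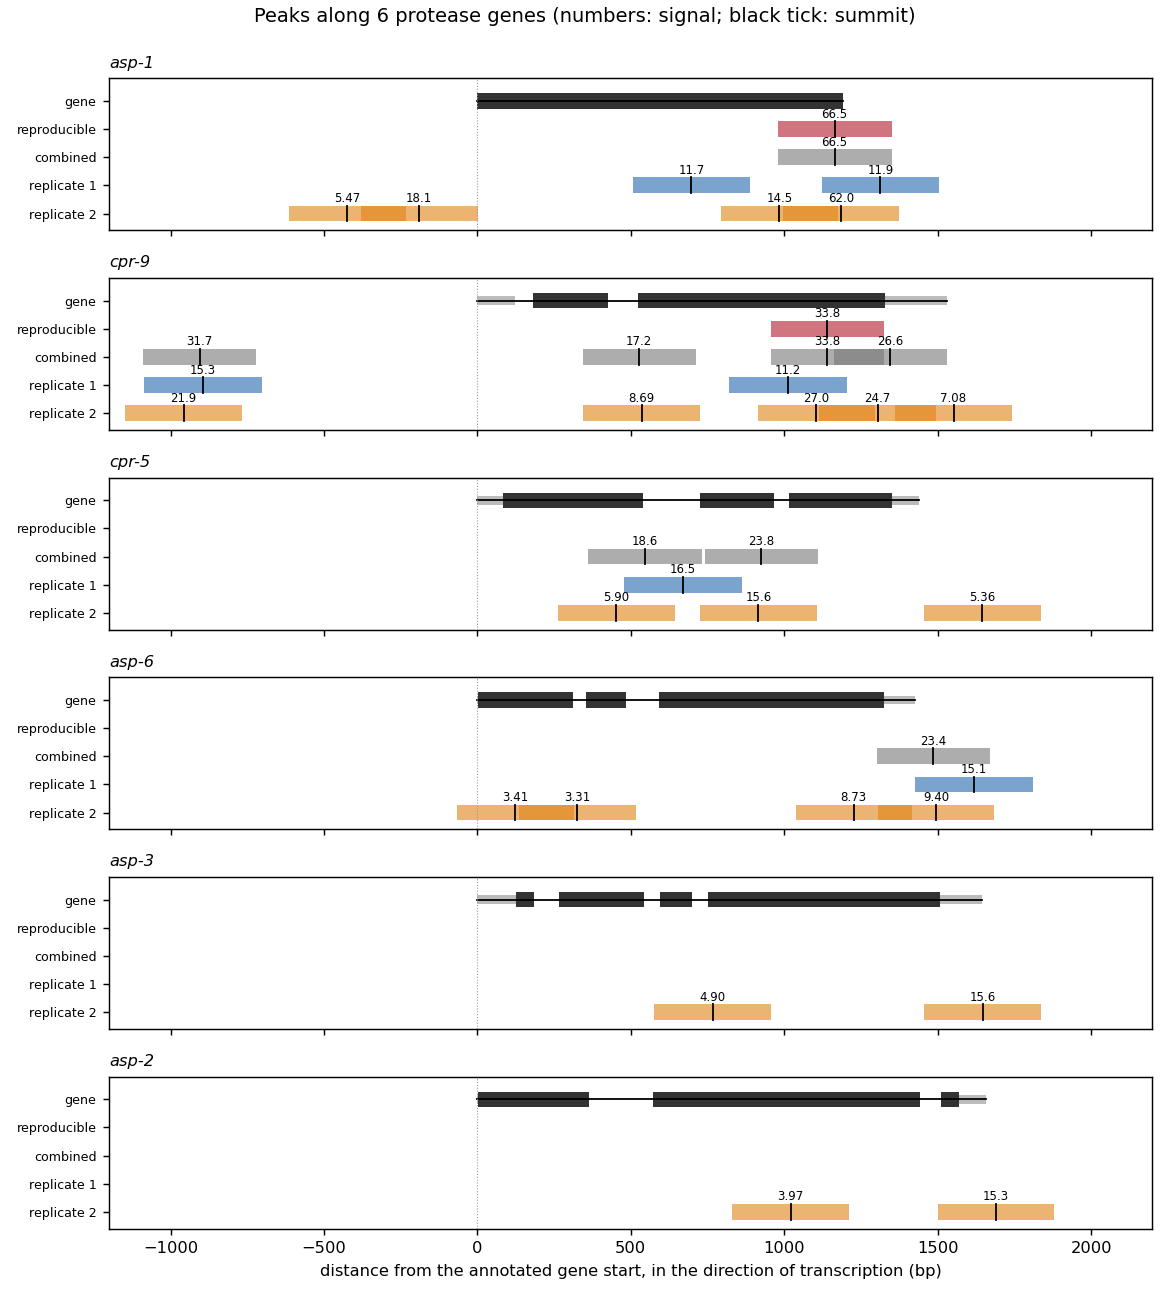
Peaks along asp-1, cpr-9, cpr-5, asp-6, asp-3 and asp-2 by distance in bp from the annotated gene start, in the direction of transcription. Dark boxes are coding exons, pale boxes untranslated exons, coloured bars the peaks of each of the 4 lists with the signal above and a black tick at the summit. The peaks with signals of 66.5 and 62.0 sit at the end of asp-1, and asp-3 and asp-2 have peaks in replicate 2 with none in the other lists.

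Over the whole group, a larger share of members than of all protein-coding genes had a peak in each list. A reproducible peak was found at 2 of 26 members, or 7.69% (exact Clopper-Pearson 95% interval 0.946 to 25.1), against 1.27% of all protein-coding genes. A combined peak was found at 10 members, 38.5% (20.2 to 59.4), against 16.1% of all genes. In replicate 1 it was 19 members, 73.1% (52.2 to 88.4), against 55.6%, and in replicate 2 it was 22 members, 84.6% (65.1 to 95.6), against 69.0%. Peaks in both replicate lists were found at 17 members, 65.4% (44.3 to 82.8), against 44.4% of all genes. These intervals cover counting error over genes only, and some members share a peak, so the number of distinct peaks at members was 2, 13, 25 and 47 in the 4 lists. With the gene body alone as window, peaks were found at 12 members in replicate 1 (46.2%) and at 9 in both replicates (34.6%), against 42.1% and 30.8% of all genes. By the same window it was 2 members (7.69%) in the reproducible list, 8 (30.8%) in the combined list and 19 (73.1%) in replicate 2, against 0.891%, 11.4% and 54.7% of all genes. The difference was not tested, because the group was formed with earlier results of these data known.

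Both reproducible peaks of the group belong to asp-1 and cpr-9, so the remaining 24 genes had 0. These 24 genes had a combined peak in 8 cases (33.3%), a replicate 1 peak in 17 (70.8%) and a replicate 2 peak in 20 (83.3%). The background was no higher for genes of the members' lengths or of their main chromosome. The members had a median length of 1642.5 bp, from 672 to 4581, against a median of 2027 bp over all genes. Of the 14373 genes in that length range, 0.981%, 13.4%, 51.8% and 66.4% had a peak in the reproducible, combined, replicate 1 and replicate 2 lists. Of the members, 21 lie on chromosome V, and 9 of these (42.9%) had a combined peak, against 10.7% of the 4994 genes of that chromosome. In replicates 1 and 2 it was 16 (76.2%) and 18 (85.7%) of the members on V, against 49.2% and 59.0% of its genes. The other members are asp-9 on IV and asp-3, asp-4, asp-14 and cpr-6 on X.

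**Figure D2:**
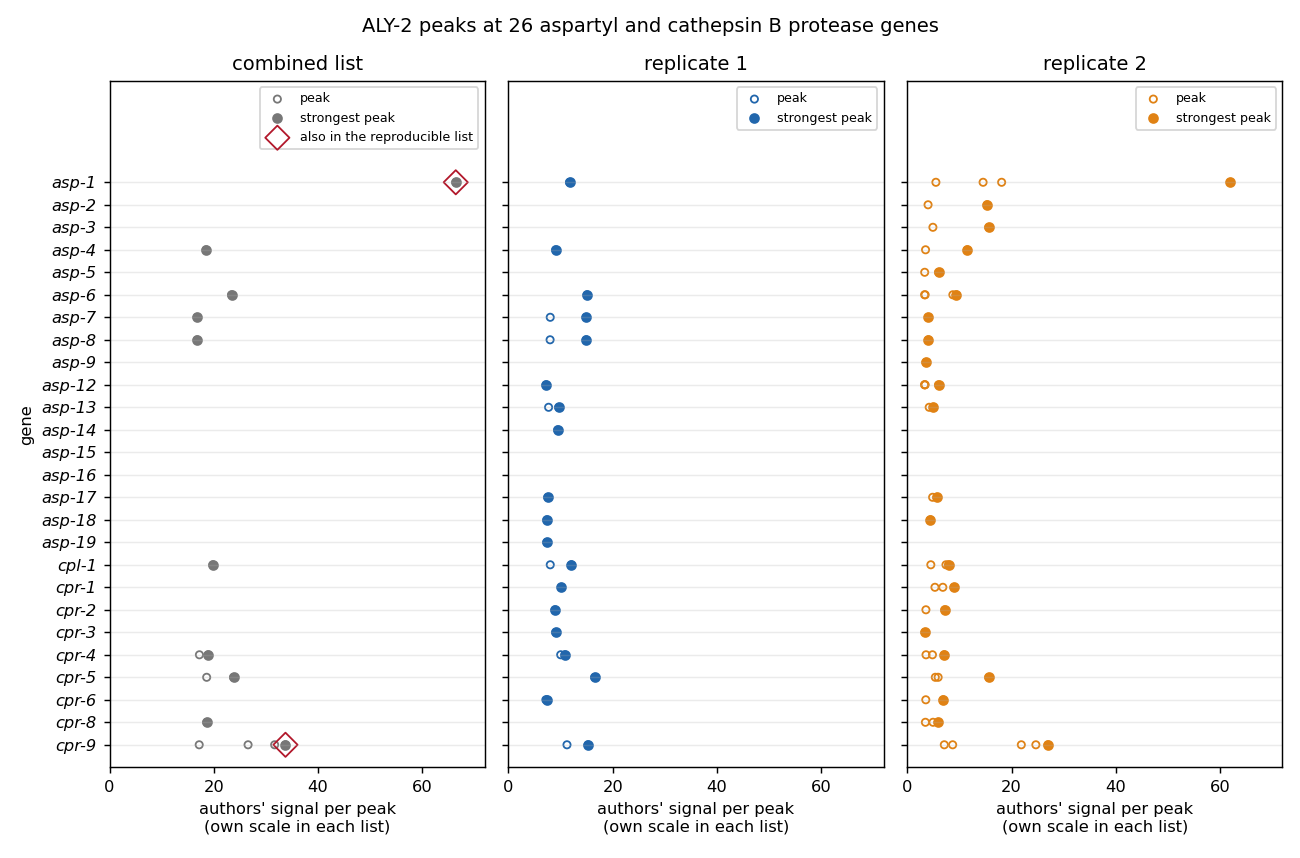
Signal of every peak at each of the 26 genes in the combined list and in replicates 1 and 2, on the scale of each list. Filled points are the strongest peak of a gene, open points its other peaks, and red diamonds the peaks that are also in the reproducible list. The points of asp-1 at 66.46 and 62.0 stand apart from the other members, while its point in replicate 1, at 11.85, lies within their range, and asp-15 and asp-16 have no points.

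The order of the members by their strongest peak differed between the replicates. In replicate 2 asp-1 came first with 62.0, followed by cpr-9 with 26.97, asp-3 and cpr-5 with 15.6 each and asp-2 with 15.28. In replicate 1 cpr-5 came first with 16.54, followed by cpr-9 with 15.26, asp-6 with 15.07 and the peak of 14.9 that asp-7 and asp-8 share. There asp-1 was the seventh, below cpl-1 (12.06). The median of the strongest signal over all 26 members, with an absent peak taken as 0, was 8.978 against 7.607 over all genes in replicate 1, and 5.975 against 4.694 in replicate 2. In the combined list both medians were 0.

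Among the cysteine protease genes, cpr-5 was the member whose strongest peaks were most alike in rank between the replicates. It encodes a cathepsin B-like enzyme and is the closest relative of cpr-9 among the cpr genes, with 58.9% identical residues over the aligned protein. Its signal was 16.54 in replicate 1, above 98.15% of that list, and 15.6 in replicate 2, above 98.12%. The summits were 246 bp apart, in an intron in replicate 1 and in coding sequence in replicate 2, and the peaks overlapped by 136 bp. The combined list had peaks of 23.8 in coding sequence and 18.64 in an intron.

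The peak of 18.64 was also the only combined peak of cpr-8, the next gene, and its summit lay 1112 bp upstream of cpr-8, outside the window. The gene cpr-8 had no peak in replicate 1, and its strongest one in replicate 2, 5.901, had its summit within cpr-5. The call at cpr-8 in the combined list thus rests on a peak whose summit is in its neighbour. It is the least related to cpr-9, with 41.8% identity.

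The gene cpr-4 encodes a cathepsin B known in C. elegans as a secreted protease released by irradiated animals. Its combined peaks had signals of 18.93, at 53.9% of the gene, and 17.25, at 174 bp past the end. At the first site the replicates had peaks of 10.02 and 7.061 whose summits were 1 bp apart. At the second site the replicates had 10.82 and 4.811, with summits 81 bp apart, so replicate 1 placed the downstream site first and replicate 2 the coding one. The gene cpl-1, required in C. elegans embryos for the processing of yolk proteins, had a combined peak of 19.81 in an intron, with 12.06 in replicate 1 and 7.894 in replicate 2 at a distance of 195 bp between summits. The genes cpr-1, cpr-2, cpr-3 and cpr-6 had peaks in both replicates and none in the combined list. Their strongest signals were from 7.346 to 10.15 in replicate 1 and from 3.356 to 8.946 in replicate 2. Some of these peaks had summits outside the window. They were the only replicate 1 peak of cpr-2, 1133 bp upstream, and the strongest replicate 2 peak of cpr-1, 1013 bp upstream. A weaker replicate 2 peak of cpr-2, 3.554, also had its summit outside the window, 1117 bp upstream. The gene cpr-1 encodes a gut cysteine protease.

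Among the aspartyl protease genes, asp-6 also had its strongest peak at the end of the gene, and so did asp-3 and asp-2 in replicate 2. They were not the only ones. The strongest peak of asp-8 had its summit within 250 bp of the gene end in both replicates and the combined list. Those of asp-14 and asp-18 did so in replicate 1. At asp-6 the combined peak of 23.41 had its summit 60 bp past the end, and the replicates had 15.07 at 192 bp and 9.396 at 68 bp past the end. At asp-3, which encodes a cathepsin D-like protease active in the necrosis of C. elegans neurons, replicate 2 had a peak of 15.6 with its summit 2 bp past the end. At asp-2 replicate 2 had a peak of 15.28 with its summit 33 bp past the end, inside the neighbouring innexin gene inx-10. Replicate 1 and the combined list had no peak at asp-3 or asp-2. The peak at the end of asp-6 also lay in the window of F21F8.5.

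The strongest replicate 2 peaks of asp-1, asp-6, asp-3 and asp-2 have summits within 68 bp of the annotated gene end. Only at asp-1 is that end the stop codon, with the summit in coding sequence. At asp-6, asp-3 and asp-2 the summit lay downstream of the gene, and the peak covered 19, 51 and 57 coding bases. The last 54 coding bases of each gene, read from the same genome, are shown with the stop codon in capitals. They are at chrV:19049562-19049615 on the minus strand for asp-1, chrV:8267614-8267667 on the minus strand for asp-6, chrX:6792518-6792571 on the plus strand for asp-3 and chrV:9204592-9204645 on the plus strand for asp-2.
asp-1 last codons: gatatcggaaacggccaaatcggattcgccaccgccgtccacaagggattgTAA
asp-6 last codons: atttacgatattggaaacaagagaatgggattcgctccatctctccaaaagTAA
asp-3 last codons: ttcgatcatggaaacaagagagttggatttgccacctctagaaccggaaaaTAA
asp-2 last codons: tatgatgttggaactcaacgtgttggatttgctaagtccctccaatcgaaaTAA
The GC content of these coding bases, which hold the summit at asp-1 only, was 53.7% at asp-1, 37.0% at asp-6, 40.7% at asp-3 and 38.9% at asp-2.

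By a wide rule, a place at the gene end was about as frequent among members as among genes in general. The strongest peak had its summit past 75% of the gene length, up to 500 bp beyond the gene end, at 6 of the 19 members with a peak in replicate 1 (31.6%), against 29.8% of all genes with one. In replicate 2 it was 6 of 22 (27.3%), against 31.3%, and in the combined list 3 of 10 (30.0%), against 38.6%. By the narrower rule of a summit within 250 bp of the gene end, chosen after seeing the data, it was 6 of 19 in replicate 1 against 14.3% of genes, 5 of 22 (22.7%) in replicate 2 against 16.7%, and 3 of 10 in the combined list against 21.7%. The members at the gene end differed between the replicates. By the narrower rule asp-1, asp-6 and asp-8 were counted in both, with asp-14, asp-18 and cpr-4 in replicate 1 and asp-2 and asp-3 in replicate 2.

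Peaks at members were also found in introns and upstream. Of the 27 pairs of a member and a peak in replicate 1, 8 had the summit in a coding exon, 4 in an intron, 6 upstream, 6 downstream and 3 outside the window. Of the 53 pairs in replicate 2, 22 were in a coding exon, 6 in an intron, 12 upstream, 9 downstream and 4 outside. The 15 pairs of the combined list comprised 6 in a coding exon, 2 in an intron, 1 in a 3′ untranslated region, 2 upstream, 3 downstream and 1 outside. Upstream summits included the site between asp-8 and asp-7, which lies 150 bp upstream of asp-7 and 204 bp past the end of asp-8. Its signal was 14.9 in replicate 1, above 96.44% of that list, with 4.028 in replicate 2, above 27.82%, and 16.8 in the combined list, above 5.956%.

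The gene asp-4, which encodes a cathepsin D-like protease of lysosomes, had its site in the middle of the gene. Its combined peak of 18.51 and its replicate 2 peak of 11.49 had the same summit, in a coding exon at 49.0% of the gene. In replicate 1 the only peak of asp-4, 9.047, had its summit 1058 bp upstream, so the replicates shared no site there. The genes asp-12 and asp-5 share the replicate 2 peak of 5.975, with a summit 54 bp inside asp-5. The gene asp-13 had 9.628 in replicate 1, 106 bp inside the gene, and 4.982 in replicate 2, 148 bp upstream of it, in peaks that overlapped by 128 bp.

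The closest relatives of asp-1 by protein sequence had no reproducible or combined peak. They are asp-16, asp-17 and asp-15, with 68.4%, 63.3% and 60.3% identical residues over the aligned protein, and all lie beside asp-1 on chromosome V in the same orientation. No list had a peak at asp-15, whose gene body lies 4708 bp from that of asp-1, or at asp-16, 609 bp further on. At asp-17 replicate 2 had peaks of 5.651 and 4.837 in coding sequence, above 61.94% and 47.57% of its list. Replicate 1 had 7.535 there, above 14.56% of its list, with its summit 813 bp upstream. The next in identity, asp-18 with 56.0% and asp-19 with 55.6%, share a replicate 1 peak of 7.346, above 8.474% of that list. In replicate 2 asp-18 had a peak of 4.409, above 37.84% of the list, and asp-19 had none.

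The sequence of the asp-1 site is distinct from these copies. All 335 stretches of 36 bases under the asp-1 peak occur once in the genome, and so do all 335 under the cpr-9 peak. Of the stretches in the gene body, 97.1% were found once for asp-15, 73.9% for asp-16 and 99.8% for asp-17. Reads from repeated stretches of asp-16 may not have been placed by the authors' mapping, whose handling of them is not given in the sources used here, and the part of this in the lack of peaks was not tested. Between asp-1 and asp-15 lies a pseudogene, WBGene00012680, with peaks of 11.01 in replicate 1 and 11.92 in replicate 2 that did not overlap. The replicate 2 peak that overlapped the replicate 1 peak had signal 4.528.

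**Figure D3:**
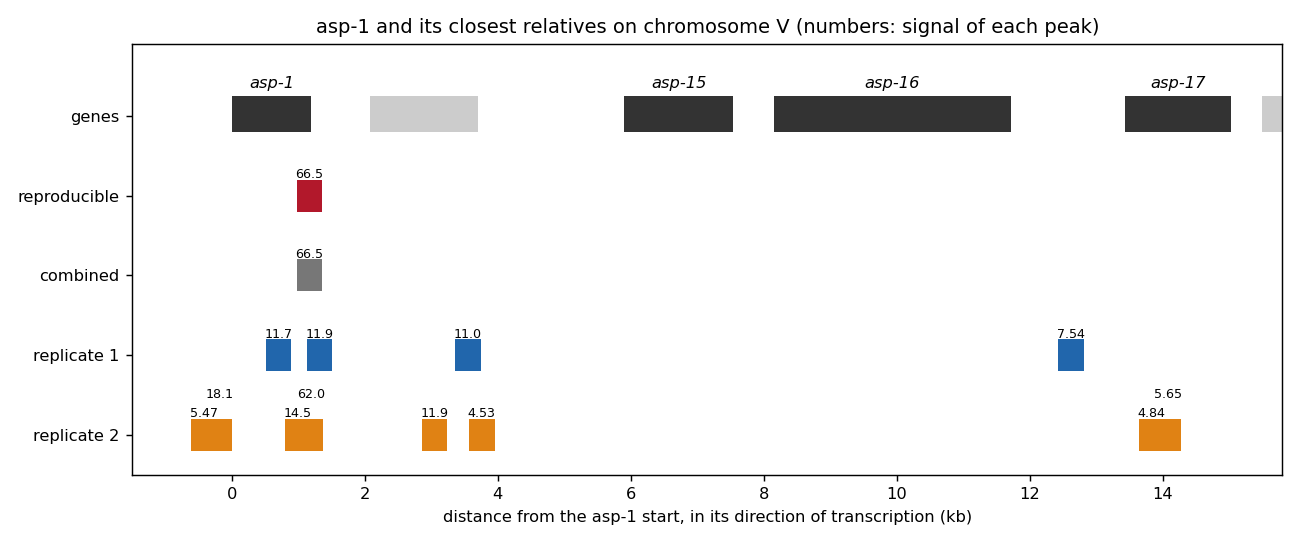
Peaks of the 4 lists along asp-1 and its closest relatives, by distance in kb from the asp-1 start in its direction of transcription, with each peak's signal above its bar. Dark boxes are the asp genes and pale boxes the pseudogene WBGene00012680 and a neighbouring gene. Peaks with signals of 66.5 and 62.0 lie at the end of asp-1, no bar lies over asp-15 or asp-16, and asp-17 has bars of 5.65 and 4.84 in replicate 2.

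Where both replicates had peaks at a member, these overlapped at most members. At 13 of 17 such members (76.5%, exact Clopper-Pearson 95% interval 50.1 to 93.2) a replicate 1 peak overlapped a replicate 2 peak, and the share over the 8864 genes with peaks in both, 61.3%, lies within that interval. The pair of peaks at asp-7 and asp-8 is the same one, and the overlap at asp-18 was 53 bp. At cpr-2 the overlapping peaks had their summits outside the window. The exceptions were asp-4, asp-12, asp-17 and cpr-3. Across the 17 members, Pearson's r of the strongest signals was 0.249 and Spearman's rho 0.387, against 0.414 and 0.266 over the 8864 genes. These are descriptions across genes, since all points share the same pair of libraries and some share a peak. Without asp-1 Pearson's r was 0.473 and Spearman's rho was 0.387, so asp-1 lowered the first of them and left the second unchanged.

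Members with a peak in 1 replicate only were no more frequent than such genes in general. Replicate 2, the longer list, alone had peaks at 5 members (19.2%), against 24.7% of all genes: asp-2, asp-3, asp-5, asp-9 and cpr-8, the lowest at asp-9 (3.553). Replicate 1 alone had peaks at 2 members (7.69%), against 11.2% of all genes: asp-14 (9.436) and asp-19. Counted by family, peaks in both replicates were found at 9 of 17 asp genes (52.9%) and 7 of 8 cpr genes (87.5%), against 44.4% of all genes, and at cpl-1. In the combined list it was 5 of 17 asp genes (29.4%) and 4 of 8 cpr genes (50.0%), against 16.1% of all genes.

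**Figure D4:**
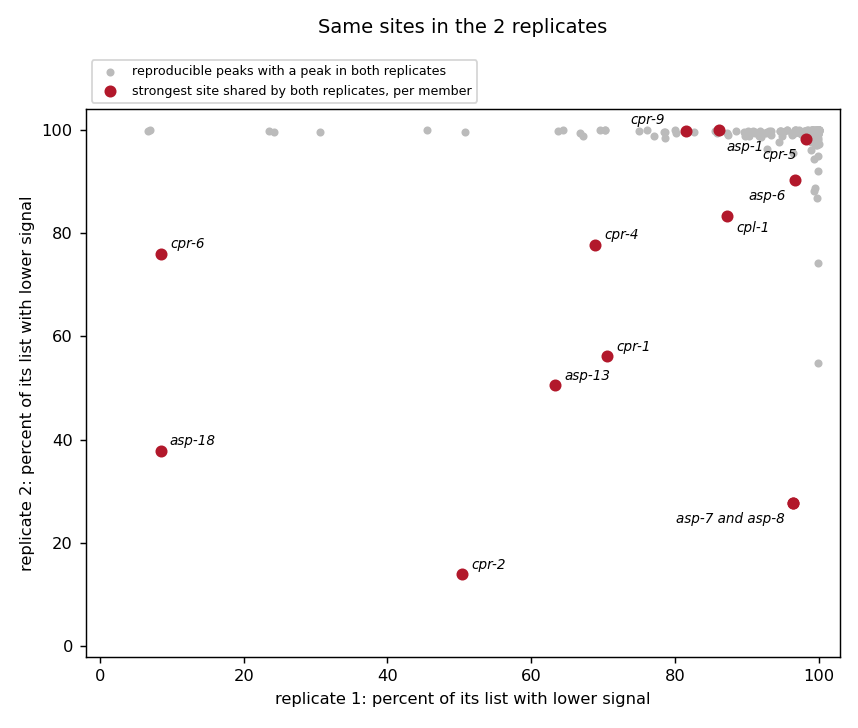
For the site shared by both replicates at each member, the strongest in replicate 2 where there were several, the percent of each replicate's list with lower signal. Red points are members, and grey points are the reproducible peaks that overlap a peak in both replicates. The member asp-1 stands at 86.11 in replicate 1 and 99.99 in replicate 2, cpr-5 at 98.15 and 98.12, and asp-7 and asp-8 at 96.44 and 27.82.

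Other genes of digestion and of lysosomes were counted in the same way, from lists set by gene name, also with earlier results known. The vacuolar ATPase genes, whose product acidifies the compartments in which these proteases work, had reproducible peaks at 2 of 20 genes, combined peaks at 10 and peaks in both replicates at 17. The reproducible ones were at vha-13 (46.9, in the 3′ untranslated region) and vha-12 (38.9, downstream). Combined peaks at vha-8, vha-17, vha-5, vha-2, vha-10, vha-9, vha-6 and vha-1 had signals from 17.9 to 27.8.

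The remaining lists had no reproducible peak. Of 31 saposin-like genes, 4 had a combined peak, in which spp-19 and spp-26 shared a peak of 26.4 and spp-2 and spp-6 one of 25.9, and 10 had peaks in both replicates. Among 6 genes for cathepsin Z, legumain and cystatins, cpz-1 had a combined peak (21.9) and 2 had peaks in both replicates. Of 16 lysozyme genes and 6 vitellogenin genes, 0 had a combined peak, and 5 and 2 had peaks in both replicates. Set beside the 16.1% of all genes with a combined peak, the shares were 50.0% for the vacuolar ATPase, 12.9% for the saposin-like genes and 16.7% for the cathepsin Z list, with no test. For peaks in both replicates, found at 44.4% of all genes, they were 85.0% for the vacuolar ATPase, 32.3% for the saposin-like genes, 31.2% for the lysozymes and 33.3% each for the cathepsin Z list and the vitellogenins. The 2 of 20 vacuolar ATPase genes with a reproducible peak stand against 1.27% of all genes.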

How the data were processed

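ALY-2 ChIP-seq peak lists of 2 replicates were used. Per the descriptions of the files that the authors deposited, the replicate and combined lists are permissive ones that keep background and feed the irreproducible discovery rate, and the reproducible list is the part past its optimal threshold. The deposited signal of a peak is on a scale that is not stated, and the q-value was deposited by the authors as its −log10. Which peak caller and aligner were used, and in which versions, is not given in the sources used here. The depth of sequencing is unknown. The ce10 lists were not used here.

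Genes came from Ensembl release 115 (assembly WBcel235, the same as ce11), with the window of 1000 bp upstream to 500 bp downstream. Protein identity came from translated coding sequences aligned globally (gap open 11, extend 1), GC content at a summit from 100 bp on each side. The overlap and class steps were tested on simulated data in 20 runs with 200 planted genes. Python 3.11.15, numpy 2.4.6, pandas 2.3.3, scipy 1.17.1, Biopython 1.88 and matplotlib 3.10.9 were used.

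The members and lists were chosen with earlier results of these data known. With 1 group of 2 replicates and no control values, no test was made. Shares have exact Clopper-Pearson 95% intervals. Named genes were asp-1, members with a reproducible or combined peak, the 5 highest members of each replicate, the 3 nearest relatives of asp-1, members with no peak, and genes of other lists with a combined peak. Genes named beyond these, such as those at gene ends, with shared peaks or in 1 replicate alone, were chosen after their values were seen.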

Additional observations from a re-analysis of the deposited data

How the results depend on the processing

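No paired analysis was possible because the samples form a single group. With the gene body alone as window, members with a peak fell to 12 in replicate 1 (46.2%) and 9 in both replicates (34.6%), against 42.1% and 30.8% of all genes. With only peaks above the median signal of each list, 1 member had a reproducible peak, 5 a combined peak and 10 a peak in both replicates, against 0.671%, 8.98% and 22.7% of all genes. Using 1 replicate in place of both gave 19 members for replicate 1 (73.1%) and 22 for replicate 2 (84.6%), against 55.6% and 69.0% of all genes. Without asp-1 Pearson's r between the replicates was 0.473, and with summed signal per gene it was 0.53, with Spearman's rho 0.261. The other 30 values differed by less than 1.5 times, among them all with the window of 2000 bp upstream to 1000 bp downstream, the summit inside the window, and the asp-1 ranks by mean signal or by −log10 q. The rule of 250 bp at the gene end, the backgrounds by length and chromosome, and the counts without asp-1 and cpr-9 were chosen after seeing the data. Depth is unknown, so a lack of a peak at asp-15 or asp-16 says only that none was listed.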
